A study of Homo sapiens with 2 samples.

Results

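The cancer-testis antigen genes were followed on the 2 arrays of a FOXM1 knockdown experiment in U87 cells. The members were chosen by gene symbol (MAGEA to MAGEH, GAGE, XAGE, PAGE, SSX, CTAG, CSAG and BAGE), and the group itself was selected on signals of these same arrays, so its values are a description. A probe set, the group of short array probes that reports 1 transcript, was a member if the platform annotation gave it exactly 1 such symbol. This gave 50 of 54675 probe sets and 37 of 19775 genes. A further 28 probe sets name several genes, at least 1 of them with such a symbol, and are given separately. Of the 37 genes, 28 belong to testis-restricted families and 6 are type II MAGE genes. The symbols of the other 3 (SSX2IP, CTAGE1 and CTAGE11P) fit the rule by spelling only: they are not members of the SSX or CTAG families.

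One sample was labelled as U87 glioblastoma cells transfected with an siRNA against FOXM1, and the other as the same line with a non-target siRNA. U87 is an established human line, and both samples shared the lipid transfection reagent and the serum-containing medium. The total RNA for 1 array of each kind was taken at 48 hours. With 1 array per group replicate spread was unknown, so the conditions could not be tested against each other.

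Testis-restricted cancer-testis genes are normally transcribed in germ cells and silent in most other adult tissues. In many tumours they are switched back on, often together, and methylation of CpG sites at their promoters is a well-known means of their silencing. Their proteins are cut into peptides that MHC class I molecules show to T cells, which is why they were first found as tumour antigens. MAGE proteins bind RING-type ubiquitin ligases and alter which proteins these mark. Type I MAGE genes (MAGEA, MAGEB, MAGEC) lie on chromosome X and are testis-restricted, whereas type II genes (MAGED, MAGEE, MAGEF, MAGEH and others) are read in many tissues.

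The arrays went against their labels at some points. The only FOXM1 probe set had a signal of 1343 on the FOXM1 siRNA-labelled array and 1520 on the non-target siRNA-labelled array, a log2 difference of -0.18. U87 cells are known to lack CDKN2A, yet its brightest probe set had a signal of 421 on the FOXM1 siRNA-labelled array and 3467 on the non-target siRNA-labelled array. Its next had 110 on the FOXM1 siRNA-labelled array and 2241 on the other, and the last lay below both floors. Also checked were CDKN2B and MTAP. The brightest CDKN2B probe set had 31.8 on the FOXM1 siRNA-labelled array and 350 on the other. All MTAP probe sets lay below the floor on the FOXM1 siRNA-labelled array, the brightest with 76.3 there and 619 on the other. "With FOXM1 siRNA" and "with non-target siRNA" below stand for these labels. All directions are therefore those of the 2 arrays as labelled, and a siRNA effect and unlike cells cannot be told apart. Of the listed glioma and astrocyte markers, 3 of 10 detected genes passed 2-fold upward and 0 downward. Among all detected genes 16.0% passed 2-fold upward and 15.4% downward. The 3 markers were CD44 (29344 with FOXM1 siRNA against 2222 with non-target siRNA), CHI3L1 (2867 against 296) and NES (261 against 54.0). GFAP and AQP4 lay below the floor on both arrays. The median log2 difference of the 10 was 0.85. All 12 listed summed to 74911 with FOXM1 siRNA against 25466 with non-target siRNA, mostly from VIM (40017 against 21179) and CD44. Markers of other cell types also differed. Of 7 fibroblast markers, 6 were detected and all 6 passed 2-fold upward, with summed signals over the 7 of 22621 on the FOXM1 siRNA-labelled array and 2053 on the non-target siRNA-labelled array. Most of both sums came from COL1A1 (11394 with FOXM1 siRNA against 1119 with non-target siRNA) and COL1A2 (8631 against 515). The other COL1A1 probe sets gave log2 differences from -0.06 to 2.25. The 10 epithelial markers summed to 1307 with FOXM1 siRNA against 12888 with non-target siRNA, and DSP and KRT18 were the 2 lower ones of 6 detected. These 2 made up most of the sum with non-target siRNA. DSP had 336 with FOXM1 siRNA against 9707 with non-target siRNA, and KRT18 had 380 with FOXM1 siRNA against 2655 with non-target siRNA. Of the other detected ones, EPCAM, CLDN7 and KRT8 had higher signals with FOXM1 siRNA and CDH1 a lower one. The median log2 difference of the 6 was -0.13. No melanocyte, neuronal or leukocyte marker had a difference or bound against a floor that reached 2-fold. Such a bound does not exclude a larger difference. S100B of the melanocyte list had 2.21 with FOXM1 siRNA against 87.8 with non-target siRNA. CD3D of the leukocyte list had 85.0 with FOXM1 siRNA against 16.2 with non-target siRNA. The 7 melanocyte markers summed to 984 with FOXM1 siRNA against 1217 with non-target siRNA. The 9 neuronal markers summed to 569 with FOXM1 siRNA against 776 with non-target siRNA, and the 7 leukocyte markers to 269 with FOXM1 siRNA against 227 with non-target siRNA. The 3' to 5' signal ratio of ACTB, a sign of RNA integrity, was 4.21 on the FOXM1 siRNA-labelled array and 6.79 on the other. For GAPDH the same ratio was 1.09 with FOXM1 siRNA against 1.26 with non-target siRNA. The part of any of these in the differences below was not tested.

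Signals are MAS5 intensities in arbitrary units. The floor of an array is the 90th percentile of its 135 probe sets for olfactory receptor genes, which these cells should not use, and was 77.7 on the FOXM1 siRNA-labelled array and 60.8 on the non-target siRNA-labelled array. By construction 14 of the 135 lay above it on each array, so a member just above its floor is not set apart from this background. A gene is represented by its brightest probe set and is detected if that lies above the floor on at least 1 array. Where 1 array lies below its floor, the fold is a bound against that floor and is written as "at least". The only error at hand comes from within the arrays: log2 differences of several probe sets of 1 gene had a pooled SD of 0.50 over 5476 genes. In bulk RNA of this kind, fewer cells of a type and less RNA per cell cannot be told apart.

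The promoters of 4 members that were higher on the FOXM1 siRNA-labelled array are shown because their CpG sites are the known place of control of these genes. Each window runs from 250 bases before to 50 bases after the annotated start, 5′ to 3′ on the gene's strand (RefSeq, GRCh38.p14), and capitals mark CG. MAGEA6 lies at chrX:152769640-152769939 on the minus strand, MAGEA12 at chrX:152733507-152733806 on the plus strand, MAGEC1 at chrX:141903644-141903943 on the plus strand and MAGEC2 at chrX:142205241-142205540 on the minus strand.
MAGEA6: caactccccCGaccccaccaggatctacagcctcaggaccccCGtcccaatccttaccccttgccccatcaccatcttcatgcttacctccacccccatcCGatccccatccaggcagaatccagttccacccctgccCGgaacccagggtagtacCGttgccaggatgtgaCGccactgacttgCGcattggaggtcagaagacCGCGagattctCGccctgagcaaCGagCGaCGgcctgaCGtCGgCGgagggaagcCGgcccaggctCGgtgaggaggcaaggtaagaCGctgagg
MAGEA12: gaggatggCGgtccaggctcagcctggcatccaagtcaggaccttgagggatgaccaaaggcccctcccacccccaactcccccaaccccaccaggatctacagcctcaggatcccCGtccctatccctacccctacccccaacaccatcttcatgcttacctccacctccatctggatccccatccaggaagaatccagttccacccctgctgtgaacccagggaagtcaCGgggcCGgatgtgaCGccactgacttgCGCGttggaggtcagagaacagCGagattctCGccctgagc
MAGEC1: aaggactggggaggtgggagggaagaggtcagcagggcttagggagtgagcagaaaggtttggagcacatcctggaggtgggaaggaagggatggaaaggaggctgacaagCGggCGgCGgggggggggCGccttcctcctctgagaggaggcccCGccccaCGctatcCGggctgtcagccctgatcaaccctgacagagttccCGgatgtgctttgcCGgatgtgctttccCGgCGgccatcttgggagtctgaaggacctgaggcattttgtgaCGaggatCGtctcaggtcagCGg
MAGEC2: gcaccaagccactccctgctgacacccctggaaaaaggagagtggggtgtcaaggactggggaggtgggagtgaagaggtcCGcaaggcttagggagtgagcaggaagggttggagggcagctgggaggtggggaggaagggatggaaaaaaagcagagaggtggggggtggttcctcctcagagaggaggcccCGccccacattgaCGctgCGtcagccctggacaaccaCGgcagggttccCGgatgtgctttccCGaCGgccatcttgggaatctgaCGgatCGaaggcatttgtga

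The MAGEA6 window holds 19 CG sites, the MAGEC1 window 14, the MAGEC2 window 10 and the MAGEA12 window shown 9. The median over 35116 promoter windows is 14, with 1 at the 10th and 37 at the 90th percentile, so none of the 4 stands outside the usual range. A second annotated MAGEA12 window, overlapping the one shown, holds 15. MAGEA11, below both floors, holds 21. The MAGEA3 and MAGEA6 windows differ at 0 of 300 bases. Such near-identical copies limit what a probe set can tell apart, and many members share sequence. A window was searched on both strands for CCGGAA, 1 form of the motif bound by ETS factors, which are known activators of MAGE promoters. It was found in 17.2% of all windows and in 2 of 31 windows of testis-restricted members (6.45%), those of MAGEA6 and MAGEB6. CCGGAT, another form of this motif, was chosen after the windows were seen. It was found in 7.12% of all windows and in 13 of those 31 (41.9%), of which MAGEA4 alone has 5. Neither count alone covers the ETS sites of a window. The 13 windows belong to 8 of the 22 genes with a window: MAGEA12, MAGEC1 and MAGEC2, which were higher, MAGEB2, which was not, and MAGEA4, MAGEA8, MAGEA11 and MAGEB1, which lay below both floors. These letters therefore occurred in windows of members with and without signal.

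Over the 37 genes, 17 were detected. Of these, 7 were at least 2-fold higher on the FOXM1 siRNA-labelled array, where 16.0% of all 13865 detected genes were, and 1 was at least 2-fold lower, where 15.4% of all were. The median log2 difference of the 17 was 0.78, against 0 over all detected genes. The 7 higher genes were MAGEA1, MAGEA6, MAGEA12, MAGEC1, MAGEC2, MAGEH1 and XAGE-4, and the lower gene was MAGEE1. The group had been selected on these signals, so nothing is read from its excess over the background. The members' level was low in general: 13 genes lay above the floor on the FOXM1 siRNA-labelled array and 12 on the other, where 62.9% of all genes did on the FOXM1 siRNA-labelled array and 64.8% on the other. With 18 hybridisation controls set equal on both arrays, the median of all genes shifted to -0.29, 11.3% of them were higher and 23.1% lower, and 6 members were higher (without XAGE-4) and 2 lower (with MAGEB2). Without the probe sets whose probes can match related transcripts (_x_at and _s_at), the higher members were 3 (MAGEC1, MAGEH1 and XAGE-4) and the median was 0.16.

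**Figure D1:**
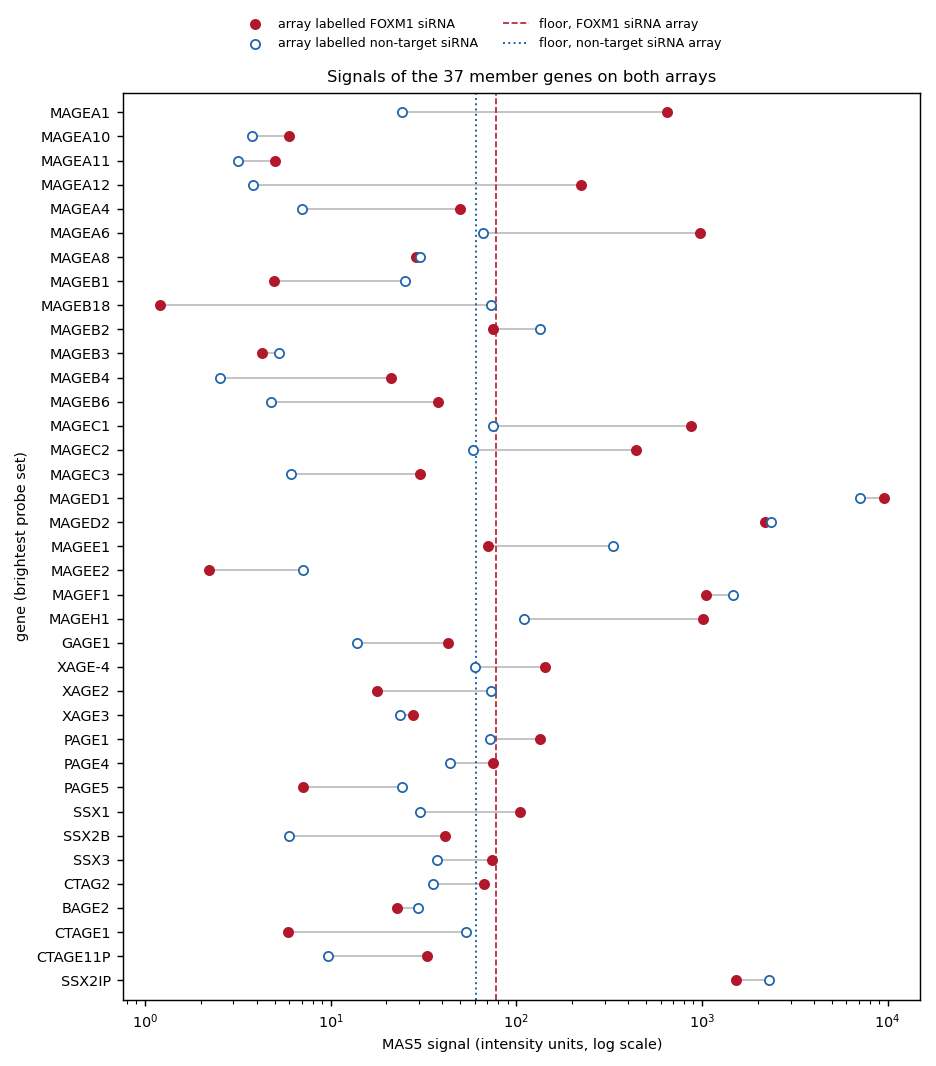
MAS5 signal (log axis) of the brightest probe set of each of the 37 member genes, with 1 filled point for the FOXM1 siRNA-labelled array and 1 open point for the non-target siRNA-labelled array, and both floors as vertical lines. MAGEA1, MAGEA6, MAGEA12, MAGEC1, MAGEC2 and MAGEH1 lie far right of both floors on the first array only or mainly, MAGED1, MAGED2, MAGEF1 and SSX2IP lie high on both, and most other genes lie left of the floors.

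The MAGEA family, whose members include the first tumour antigen shown to be seen by T cells (MAGEA1), held the strongest signal among testis-restricted genes on the FOXM1 siRNA-labelled array. MAGEA6 had a signal of 979 on the FOXM1 siRNA-labelled array and 66.4 on the non-target siRNA-labelled array, a 14.7-fold difference (log2 3.88). The lower of these 2 signals lies barely above its floor, and 12 olfactory receptor probe sets exceeded it on that array, whereas none exceeded 979 on the other. MAGEA1 had 645 with FOXM1 siRNA against 24.4 with non-target siRNA and was at least 10.6-fold higher. MAGEA12 had 223 with FOXM1 siRNA against 3.81 with non-target siRNA and was at least 3.67-fold higher. These 3 were above the floor on the FOXM1 siRNA-labelled array, where 1 olfactory receptor probe set exceeded MAGEA1 and 3 exceeded MAGEA12, and close to or below the floor on the other. Among all probe sets of an array, MAGEA6 stood at percentile 84.6 on the FOXM1 siRNA-labelled array and 48.6 on the non-target siRNA-labelled array, while MAGEA1 stood at 80.2 and MAGEA12 at 67.1 on the FOXM1 siRNA-labelled array and lay below the floor on the other. Each has only 1 member probe set, of the kind whose probes can match related transcripts (ID ending in _x_at), so the share of each MAGEA gene in these signals was not resolved.

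The family was not uniform. MAGEA4, MAGEA8, MAGEA10 and MAGEA11 lay below the floor on both arrays. MAGEA4 had 49.7 on the FOXM1 siRNA-labelled array and 7.02 on the other. MAGEA8 had 28.7 with FOXM1 siRNA against 30.4 with non-target siRNA, MAGEA10 had 5.95 with FOXM1 siRNA against 3.78 with non-target siRNA and MAGEA11, known to bind the androgen receptor, had 5.02 with FOXM1 siRNA against 3.18 with non-target siRNA. Signals below the floor have no order, so no difference is given for them.

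In the MAGEC family 2 of 3 genes were higher as well. MAGEC1, which encodes the antigen CT7 with a long repeat region, had 876 on the FOXM1 siRNA-labelled array and 75.3 on the non-target siRNA-labelled array, 11.6-fold higher (log2 3.54). Its probe set is of the specific kind (_at), unlike those of MAGEA1, MAGEA6 and MAGEA12. The member probe sets of MAGEA4, MAGEA8, MAGEA10 and MAGEA11 are of the specific kind too, and lay below both floors. MAGEC2, whose protein binds the ubiquitin ligase TRIM28, had 443 with FOXM1 siRNA against 58.3 with non-target siRNA in 1 probe set and was at least 7.29-fold higher. Its other probe set had 1.90 with FOXM1 siRNA against 5.07 with non-target siRNA, below both floors, so the 2 disagree on whether the transcript was measured at all, and their median gave a log2 difference of 1.43. MAGEC3 lay below both floors at 30.4 with FOXM1 siRNA against 6.12 with non-target siRNA.

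MAGEB genes, which lie in a separate cluster on the short arm of X, held no gene at least 2-fold higher. Of the 6, 0 were detected on the FOXM1 siRNA-labelled array and 2 on the non-target siRNA-labelled array. MAGEB2 had 75.0 with FOXM1 siRNA against 134 with non-target siRNA and was at least 1.72-fold lower. MAGEB18 had 1.20 with FOXM1 siRNA against 73.1 with non-target siRNA, but the floor of the FOXM1 siRNA-labelled array exceeds 73.1, so no fold is given. MAGEB1, MAGEB3, MAGEB4 and MAGEB6 lay below both floors. Whether the MAGEB genes differ from the MAGEA and MAGEC genes was not tested.

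Among the 6 type II MAGE genes, MAGED1, MAGED2 and MAGEF1 gave high signals that differed by less than 2-fold. MAGED1, whose product binds the neurotrophin receptor p75, was the brightest member with 9583 on the FOXM1 siRNA-labelled array and 7098 on the non-target siRNA-labelled array, 1.35-fold higher. MAGED2, mutated in an antenatal form of Bartter syndrome, had 2184 with FOXM1 siRNA against 2351 with non-target siRNA in its brightest probe set and 1216 with FOXM1 siRNA against 1089 with non-target siRNA in the other, with log2 differences of -0.11 and 0.16. MAGEF1, the member on chromosome 3, had 1057 with FOXM1 siRNA against 1478 with non-target siRNA, 1.40-fold lower. The log2 differences of the brightest probe sets of these 3 genes (0.43, -0.11 and -0.48) were all smaller in size than the SD of 0.50 over probe sets.

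A pair of type II genes differed in opposite directions. MAGEH1 had 1010 on the FOXM1 siRNA-labelled array and 110 on the non-target siRNA-labelled array, 9.16-fold higher (log2 3.20), in a specific probe set. MAGEE1, whose protein binds alpha-dystrobrevin, had 70.4 with FOXM1 siRNA against 330 with non-target siRNA in 1 probe set and 44.9 with FOXM1 siRNA against 231 with non-target siRNA in the other. The bounds were 4.25-fold and 2.97-fold lower, so both had the same direction. MAGEE2 lay below both floors at 2.23 with FOXM1 siRNA against 7.13 with non-target siRNA. MAGE genes outside the symbol rule also differed both ways: NDN (necdin, an imprinted type II MAGE gene) had 847 with FOXM1 siRNA against 73.3 with non-target siRNA and was 11.6-fold higher, TRO (trophinin) had 56.6 with FOXM1 siRNA against 522 with non-target siRNA and was at least 6.72-fold lower, and NSMCE3, a subunit of the SMC5/6 complex, had 731 with FOXM1 siRNA against 781 with non-target siRNA. 2 other TRO probe sets, above both floors, gave log2 differences of -1.71 and -1.48. MAGEL2 lay below both floors.

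The small acidic antigens of the GAGE, XAGE and PAGE families were weak throughout. XAGE-4, annotated as a transcribed pseudogene, had 144 on the FOXM1 siRNA-labelled array and 59.9 on the non-target siRNA-labelled array and was at least 2.36-fold higher. PAGE1 had 134 with FOXM1 siRNA against 72.2 with non-target siRNA, 1.86-fold higher. XAGE2 had 17.7 with FOXM1 siRNA against 73.6 with non-target siRNA, with no fold because the floor of the FOXM1 siRNA-labelled array exceeds its brighter signal. These signals are close to the floors: 3 olfactory receptor probe sets exceeded XAGE-4 and PAGE1 on the FOXM1 siRNA-labelled array, and 9 exceeded XAGE2 on the other. GAGE1, XAGE3, PAGE4 (an antigen of the prostate and placenta) and PAGE5 lay below both floors.

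SSX genes, known from the SS18-SSX fusions of synovial sarcoma, and the CTAG and BAGE genes were at or near background. SSX1 had 105 on the FOXM1 siRNA-labelled array and 30.4 on the non-target siRNA-labelled array in its brighter probe set, at least 1.72-fold higher, and 23.3 with FOXM1 siRNA against 3.58 with non-target siRNA in the other. SSX2B, all 3 probe sets of SSX3, both probe sets of CTAG2 and the probe set of BAGE2 lay below both floors. The brighter CTAG2 probe set had 67.4 with FOXM1 siRNA against 35.4 with non-target siRNA. CSAG genes were measured only through a shared probe set.

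Taken over probe sets, 23 of the 34 for testis-restricted members lay below both floors. Their signals reached at most 74.6 on the FOXM1 siRNA-labelled array and 44.0 on the non-target siRNA-labelled array. The median of all 34 was 29.7 with FOXM1 siRNA against 23.9 with non-target siRNA, beside 21.2 with FOXM1 siRNA against 12.2 with non-target siRNA for the olfactory receptors, and most of the family therefore sat in the background range on both arrays. Of the 28 genes, 8 (28.6%) lay above the floor on the FOXM1 siRNA-labelled array and 6 (21.4%) on the other, as did 12.7% and 13.7% of 102 olfactory receptor genes on the same arrays. On the FOXM1 siRNA-labelled array alone, 5 of these 28 genes (MAGEA1, MAGEA12, MAGEC2, XAGE-4 and SSX1) lay above the floor, as did 5.31% of all genes. On the non-target siRNA-labelled array alone, 3 of the 28 (MAGEB2, MAGEB18 and XAGE2) and 1419 of all 19775 genes did. Nothing is read from these shares, since the group was selected on these signals.

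**Figure D2:**
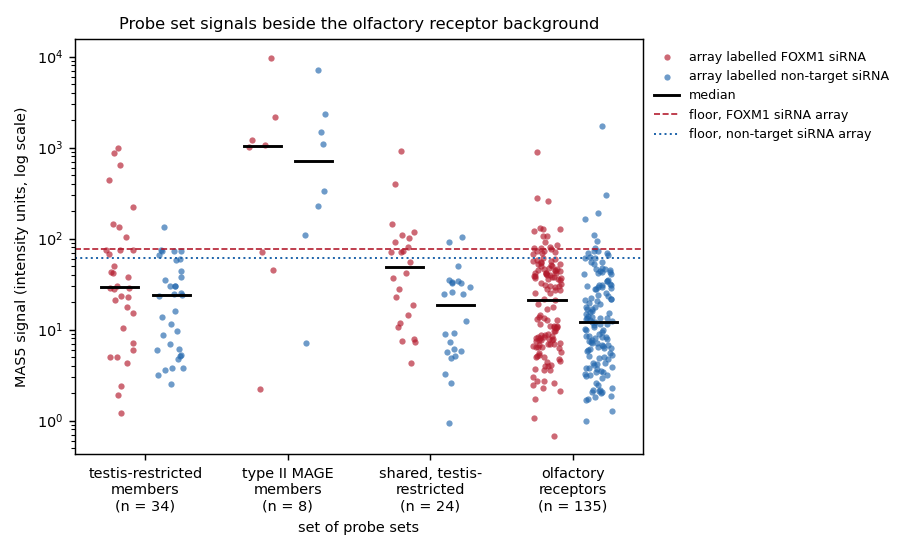
MAS5 signals (log axis) of member probe sets of testis-restricted genes, of type II MAGE genes, of shared probe sets of testis-restricted families and of 135 olfactory receptor probe sets, with the FOXM1 siRNA-labelled array left and the non-target siRNA-labelled array right in each pair. Points are probe sets, bars are medians and dashed or dotted lines are the floors. The type II medians of 1033 with FOXM1 siRNA against 710 with non-target siRNA lie far above the floors, and the testis-restricted medians of 29.7 with FOXM1 siRNA against 23.9 with non-target siRNA lie below them.

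Of the 6 MAGEA probe sets that name several genes, 4 were above the floor on the FOXM1 siRNA-labelled array and 1 on the non-target siRNA-labelled array. The set naming MAGEA6 and MAGEA3, whose proteins both direct TRIM28, had 912 on the FOXM1 siRNA-labelled array and 91.0 on the non-target siRNA-labelled array, 10.0-fold higher. MAGEA2 and MAGEA2B share 2 probe sets. One, of the specific kind, had 394 with FOXM1 siRNA against 24.6 with non-target siRNA and was at least 6.48-fold higher, and the other had 118 with FOXM1 siRNA against 0.936 with non-target siRNA and was at least 1.94-fold higher. A probe set for MAGEA5P had 144 with FOXM1 siRNA against 35.2 with non-target siRNA, at least 2.36-fold higher, while its other had 7.84 with FOXM1 siRNA against 29.6 with non-target siRNA, below both floors. The set for MAGEA9 and MAGEA9B was below both floors at 27.6 with FOXM1 siRNA against 24.6 with non-target siRNA. These sets overlap in sequence with the single-gene MAGEA sets and are not independent of them.

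In the other testis-restricted families the shared probe sets had low signals. Of 4 GAGE sets, 2 lay above the floor on the FOXM1 siRNA-labelled array, at 109 and 92.0, against 32.5 and 9.03 on the non-target siRNA-labelled array, with bounds of 1.78-fold and 1.51-fold higher. Of 8 SSX sets, 2 lay above the floor on the FOXM1 siRNA-labelled array (101 and 80.5) and 1 on the other (105), and no fold reached 2. The 3 sets for CTAG1A and CTAG1B, the genes of the antigen NY-ESO-1, had at most 18.7 with FOXM1 siRNA against 7.28 with non-target siRNA. The sets for XAGE1A and XAGE1B, for CSAG2 and CSAG3, and for BAGE2 with BAGE5 were below both floors too. The 2 sets for the type II gene MAGED4 with MAGED4B, which also name small nucleolar RNA genes, had 579 and 589 on the FOXM1 siRNA-labelled array and 1038 and 796 on the other, 1.79-fold and 1.35-fold lower. In all, 12 of the 28 shared sets exceeded the floor with FOXM1 siRNA and 6 with non-target siRNA. For comparison, 50.5% of all 54675 probe sets did so with FOXM1 siRNA and 53.2% with non-target siRNA.

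**Figure D3:**
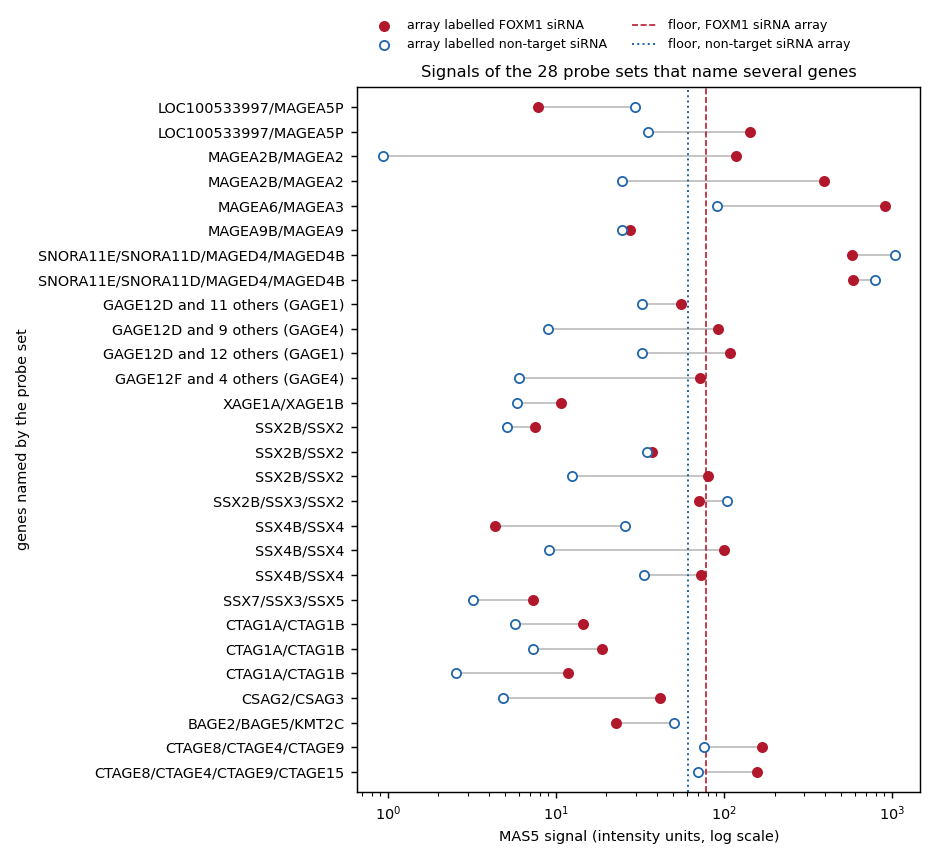
MAS5 signal (log axis) of the 28 probe sets that name several genes, with the FOXM1 siRNA-labelled array as filled and the non-target siRNA-labelled array as open points and both floors as lines. The sets for MAGEA6 with MAGEA3 (912 with FOXM1 siRNA against 91.0 with non-target siRNA) and for MAGEA2B with MAGEA2 (394 with FOXM1 siRNA against 24.6 with non-target siRNA) show the widest gaps above the floors.

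The 3 genes matched by spelling belong to neither antigen family. SSX2IP, which encodes a centrosome and adherens junction protein, had 1532 on the FOXM1 siRNA-labelled array and 2295 on the non-target siRNA-labelled array. All of its 6 probe sets had negative log2 differences, between -0.58 and -1.18, with 2 beyond 2-fold. CTAGE1 and CTAGE11P lay below both floors. The 2 shared sets for CTAGE4, CTAGE8 and CTAGE9, 1 of which also names CTAGE15, had 167 and 158 on the FOXM1 siRNA-labelled array and 76.3 and 69.8 on the other, 2.20-fold and 2.26-fold higher.

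Of the 37 members, 32 lie on X. The 471 other detected genes there were more often lower than higher by 2-fold or more: 27.0% were lower and 11.0% higher, with a median log2 difference of -0.38. Within the MAGEA cluster, 7 measured genes that are no members lie between MAGEA4 and MAGEA1 (RefSeq gene order), all detected. One, GABRQ, a subunit gene of the GABA-A receptor beside MAGEA12, was higher, at 1157 with FOXM1 siRNA against 107 with non-target siRNA (log2 3.43), and its other probe set gave 3.53. One, PNMA6A, was lower, at 73.6 with FOXM1 siRNA against 290 with non-target siRNA (a bound of -1.90), and the centrin gene CETN2 (0.43), the sterol enzyme gene NSDHL (-0.49) and ZNF185 (-0.09) were within 2-fold. GABRA3, another GABA-A receptor subunit gene, had 94.4 with FOXM1 siRNA against 2.45 with non-target siRNA, and PNMA3 had 79.1 with FOXM1 siRNA against 35.1 with non-target siRNA. Both were above the floor on the FOXM1 siRNA-labelled array alone, with lower bounds of 0.63 and 0.38. Beside MAGEC1 and MAGEC2, LDOC1 and UBE2NL gave -0.71 and -0.87. MAGEH1 lies next to the deubiquitinase gene USP51, which gave 0.71. These neighbours thus differed among themselves in direction and size.

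**Figure D4:**
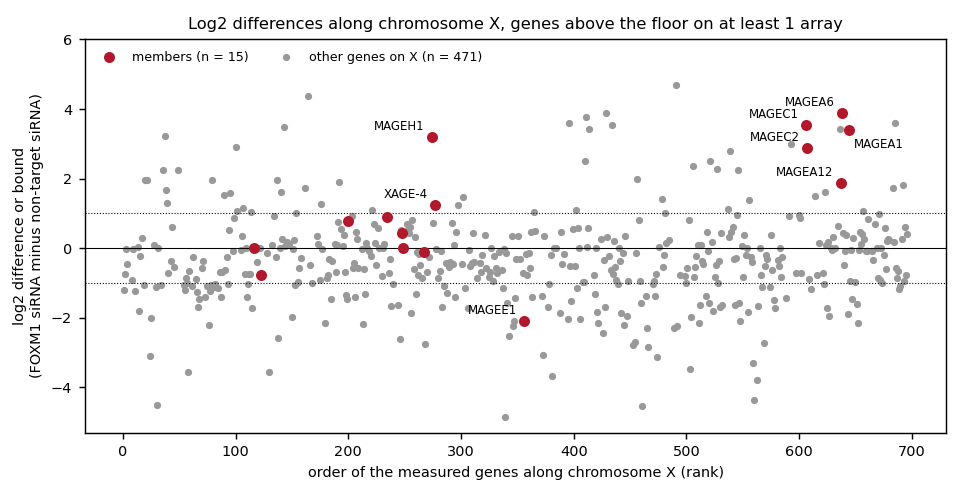
Log2 difference or bound (FOXM1 siRNA minus non-target siRNA) of the genes on X detected on at least 1 array, in the order of measured genes along the chromosome, with 15 members as large points and 471 other genes as small points. Dotted lines mark 2-fold. MAGEC1 (3.54), MAGEA6 (3.88) and MAGEA1 (3.41) lie high near the right end, MAGEH1 (3.20) lies left of the middle, and MAGEE1 (-2.09) is the lowest member.

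The lists of other cancer-testis genes were drawn up with earlier results of these arrays known. They held no gene whose difference or lower bound reached 2-fold upward, on X or on other chromosomes. The lists are not complete: IL13RA2 on X, outside both, had a log2 difference or bound of 4.68. Of 19 listed and measured cancer-testis genes on X outside the rule, 8 were detected, 0 were at least 2-fold higher and 1 was lower. The lower gene, the placental gene PLAC1, had 156 on the FOXM1 siRNA-labelled array and 1028 on the other. SPANXB1, which lies close to MAGEC1, had 111 with FOXM1 siRNA against 20.0 with non-target siRNA and was at least 1.82-fold higher, a bound that does not exclude a larger difference. Of 32 listed and measured on other chromosomes, 17 were detected, 0 were higher and 5 lower. Beside both lists, 16.0% of all detected genes were higher and 15.4% lower. PRAME, an antigen of melanoma and a ubiquitin ligase subunit, had 156 with FOXM1 siRNA against 1040 with non-target siRNA, 6.66-fold lower. LDHC, a sperm lactate dehydrogenase, was 3.73-fold lower, the orphan receptor gene NR6A1 2.91-fold, DSCR8 2.43-fold and DCAF12 2.06-fold. LY6K had 89.9 with FOXM1 siRNA against 16.0 with non-target siRNA, at least 1.48-fold higher. Higher members and lower antigens thus occurred on the same arrays. CTCFL, a germline paralogue of CTCF, lay below both floors at 1.06 with FOXM1 siRNA against 4.59 with non-target siRNA.

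Of 24 germ cell genes, 8 were detected, 2 were higher and 1 lower, where 16.0% of all detected genes were higher and 15.4% lower. GTSF1, a piRNA pathway gene, had 205 with FOXM1 siRNA against 43.6 with non-target siRNA, at least 3.37-fold higher, and the meiosis gene MEI1 had 179 with FOXM1 siRNA against 72.1 with non-target siRNA, 2.48-fold higher. TEX15, needed for silencing of transposons in mouse germ cells, had 29.4 with FOXM1 siRNA against 556 with non-target siRNA in its brighter probe set, at least 7.16-fold lower, while its other lay below both floors. The germ cell markers DDX4, PRDM9, PRM1 and PRM2 lay below both floors, and DAZL had 81.5 with FOXM1 siRNA against 5.45 with non-target siRNA. The list's summed signal was 1242 on the FOXM1 siRNA-labelled array and 1647 on the other.

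Genes of DNA methylation were mixed with more lower than higher. Of 16 detected, 5 passed 2-fold downward and 2 upward, and the median log2 difference was -0.50. Among all detected genes 15.4% were lower and 16.0% higher. With the median of probe sets, 4 genes of the list were lower and 1 higher. TET1, an enzyme that oxidises methylated cytosine, had 124 with FOXM1 siRNA against 1815 with non-target siRNA, 14.6-fold lower, and its other probe set had 48.5 with FOXM1 siRNA against 247 with non-target siRNA. TDG, which removes the oxidised bases, was 3.54-fold lower at 2097 with FOXM1 siRNA against 7415 with non-target siRNA. ZBTB33 (Kaiso), a reader of methylated DNA, was 2.96-fold lower. DNMT3B, which sets new methylation, had 350 with FOXM1 siRNA against 913 with non-target siRNA, 2.61-fold lower, and DNMT1, which copies it at replication, had 2781 with FOXM1 siRNA against 5678 with non-target siRNA, 2.04-fold lower. UHRF1, a partner of DNMT1, had a log2 difference of -0.39. HELLS, a chromatin remodeller needed for DNA methylation, had -0.27 in its brightest probe set, while 4 others gave -0.84, -1.37, -1.55 and 0.66, so its probe sets disagree. The higher genes were ZBTB4 (2.43-fold) and MBD2 (2.09-fold), both readers of methylated DNA. For MBD2, 2 further probe sets ran the other way, with 37.0 and 41.4 on the FOXM1 siRNA-labelled array and 157 and 152 on the other. Without _x_at and _s_at probe sets, 2 of 12 detected genes were lower and 0 higher, and with the hybridisation controls set equal 6 of 16 were lower and 0 higher.

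All 24 genes of histone silencing were detected, of which 7 passed 2-fold downward and 0 upward, and the median log2 difference was -0.58. Over all detected genes 15.4% were lower and 16.0% higher, and the lower genes of the list numbered 4 with the median of probe sets and 10 with the hybridisation controls set equal. PCGF6, the Polycomb subunit that represses germline genes in mouse embryonic stem cells, had 657 with FOXM1 siRNA against 2465 with non-target siRNA, 3.75-fold lower. The histone methyltransferase gene EHMT1 was 2.76-fold lower, the PRC2 subunit gene EED 2.62-fold and the deacetylase gene HDAC1 2.59-fold. The other EHMT1 probe sets disagreed, with 65.9 and 96.6 on the FOXM1 siRNA-labelled array and 119 and 72.9 on the other. TRIM28, at once a silencing factor and the ligase bound by MAGEA3, MAGEA6 and MAGEC2, had 1071 with FOXM1 siRNA against 1609 with non-target siRNA (log2 -0.59). No link between these genes and the antigens was tested.

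Partners of MAGE proteins were mostly within 2-fold or lower. Of 11 detected, 1 was higher and 4 lower, with a median of -0.45, where 16.0% of all detected genes were higher and 15.4% lower. The higher partner was the ligase gene LNX1, at 587 with FOXM1 siRNA against 56.3 with non-target siRNA, at least 9.64-fold higher. The lower were the ligase gene TRIM27 (3.22-fold), NSMCE4A of the SMC5/6 complex (2.54-fold), the AMPK subunit gene PRKAA2 (2.38-fold), and PJA1 (2.23-fold), the ligase gene linked to MAGED1. Of 14 MHC class I presentation genes, all detected, 8 were higher and 0 lower, among them the immunoproteasome gene PSMB8 (1132 with FOXM1 siRNA against 26.7 with non-target siRNA, at least 18.6-fold), HLA-C (2.94-fold), HLA-B (2.88-fold) and B2M (2.06-fold), where 16.0% of all detected genes were higher. The values of these 4 genes come from _x_at or _s_at probe sets, without which 5 of 10 detected genes of the list were higher. The other B2M probe sets stayed under 2-fold, with log2 differences of 0.88 and 0.89. The list held 7 higher genes with the median of probe sets. Larger differences than in the HLA genes and B2M came from _at probe sets of PSMB9, ERAP2 and NLRC5. PSMB9 had 1284 with FOXM1 siRNA against 119 with non-target siRNA (log2 3.43). ERAP2 had 1295 with FOXM1 siRNA against 176 with non-target siRNA (log2 2.88). NLRC5 had 398 with FOXM1 siRNA against 47.1 with non-target siRNA, the latter below its floor. The part of the epithelial, fibroblast and RNA quality values given above in these lists was not tested.

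**Figure D5:**
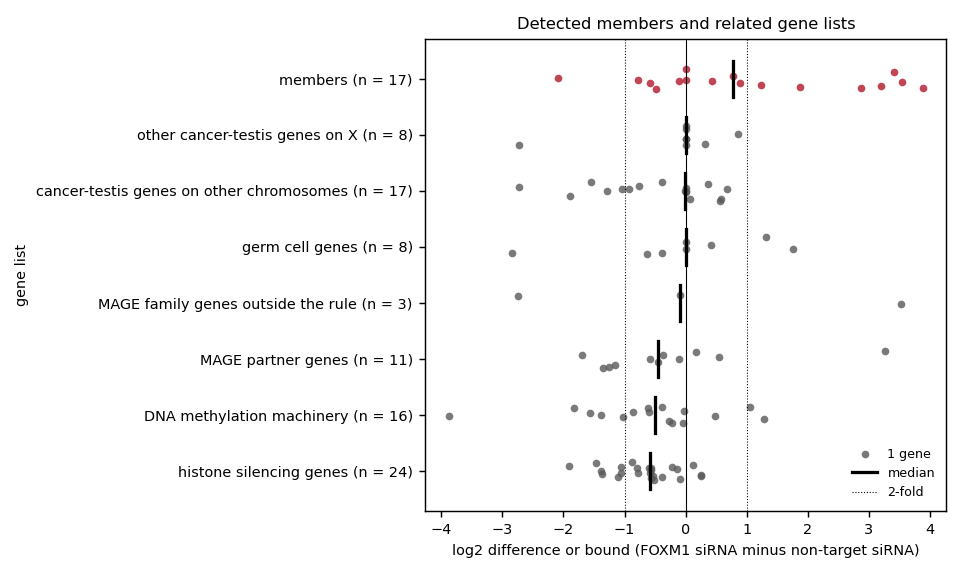
Log2 difference or bound (FOXM1 siRNA minus non-target siRNA) of each detected gene of the members and of 7 related lists, with black bars at the medians and dotted lines at 2-fold. The members' median lies at 0.78, that of the DNA methylation genes at -0.50 and that of the histone silencing genes at -0.58.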

How the data were processed

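RNA of 2 samples was measured on 1 array each. The authors deposited 1 linear signal intensity per probe set, made with MAS5 per the submitters' processing notes, which name no version. The intensities had been scaled per array: the mean without the outer 2% was 500.07 on both. Detection calls were not used here, and the number of arrays limits the precision.

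Gene names came from the platform annotation (41097 with 1 symbol, 1801 with several, 11777 not listed), with symbols updated by gene ID for 99.9% of the single-symbol sets. Members kept the symbol to which the rule was applied. Log2 differences are FOXM1 siRNA minus non-target siRNA after raising each array to its floor. A bound whose sign was opposite to the detected array's was set to 0. Every detected member was named, members below both floors were counted and named, and from other lists mainly the largest differences of at least 2-fold. The members and all 14 gene lists were chosen with earlier results of these data known. Alternatives were 4 scalings (loess span 0.3), other floors, probe set rules, a pseudocount of 50 and other fold thresholds; spelling matches left out and shared probe sets added were chosen after seeing the data. Python 3.11.15, numpy 2.4.6, pandas 2.3.3 and statsmodels 0.14.6 were used.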

Additional observations from a re-analysis of the deposited data

How the results depend on the processing

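The count of 7 higher members was 15 with no floor, 12 with shared probe sets added and 3 without _x_at and _s_at probe sets, which leaves MAGEA1, MAGEA6 and MAGEA12 without a probe set and MAGEC2 below both floors. The count of 1 lower member was 7 with no floor and 2 each with the hybridisation controls set equal, a pseudocount of 50 and a 1.5-fold threshold. Detection of 13 members on the FOXM1 siRNA-labelled array became 7 without those probe sets and 21 with shared ones. Detection of 12 on the non-target siRNA-labelled array became 6 with a floor 2 times as high and 7 with a common floor, which shows how near the floor these signals lie. The median log2 difference of 0.78 was 0.16 without _x_at and _s_at probe sets. For these moves beyond what the fewer or added probe sets and the floors set by construction, the cause was not tested. All 8 members at least 2-fold different kept their sign in every alternative that measured them. MAGEA12 fell under 2-fold in 1 of 11 alternatives and XAGE-4 in 3 of 11, and with a floor 2 times as high XAGE-4 was no longer detected. The median of probe sets could not change the value of a member with 1 probe set. Leaving out spelling matches and adding shared probe sets could change the value of none of these 8 members. Their log2 differences ranged from 3.01 to 3.91 for MAGEA6, 2.41 to 4.73 for MAGEA1, 0.87 to 5.87 for MAGEA12, 2.85 to 3.57 for MAGEC1, 1.43 (median of probe sets) to 2.93 for MAGEC2, 2.73 to 3.23 for MAGEH1, 0.82 to 1.27 for XAGE-4 and -2.39 to -1.09 for MAGEE1. With the median of probe sets, 1 germ cell gene was higher and 2 lower. With the hybridisation controls set equal, the median of all genes moved to -0.29, and the share of higher against lower genes to 11.3% and 23.1%. No paired analysis was possible because each group holds 1 array.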
